A study of Xenopus tropicalis with 16 samples.

Results

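The neurula-trough genes are 200 genes whose transcripts were less abundant at the neurula stage than at both the gastrula stage before it and the tailbud stage after it, in control animal caps (ACs) of Xenopus tropicalis. They were chosen from the mean levels of the control libraries on the log2(CPM + 1) scale, where CPM is the read count of a gene scaled to a fixed total per library, after TMM normalisation. A gene had to be lower by at least 1 at neurula than at gastrula and higher by at least 1 at tailbud than at neurula, which is a fold of 2 in each interval. Of 14373 genes counted, 11997 had at least 1 read in 12 or more of the 16 libraries, and 373 of these met both thresholds. The 200 with the highest score, the smaller of the 2 changes, were kept.

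RNA was sequenced from ACs, explants of prospective ectoderm that were cut at the blastula stage and form embryonic epidermis in culture. Embryos had been injected at the two-cell stage either with a pair of translation-blocking morpholinos against suv4-20h1 and suv4-20h2 (SUV4-20H dMO, the double morphants) or with a standard control morpholino (CoMo). The dMO groups held 3 libraries at Nieuwkoop-Faber stage NF10 (gastrula), 2 at NF16 (neurula) and 3 at NF24 (tailbud), and the CoMo groups held the same numbers. Each library was made from a pool of explants, staged by sibling embryos, and the tailbud dMO explants had dissociated into single cells. A translation block need not change the level of its target mRNA, and the identifiers in the files could not be paired with gene symbols here, so neither the knockdown nor the epidermal identity of the explants was checked against marker genes.

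SUV4-20H1 and SUV4-20H2 convert monomethylated lysine 20 of histone H4 to the dimethylated and trimethylated forms, and the dimethylated form is the most common state of this residue in vertebrate chromatin. Between gastrula and neurula, ectoderm of the frog embryo leaves pluripotency, much of its maternal RNA is cleared, and progenitors of the larval epidermis are specified. From neurula to tailbud, the cell types of the mucociliary epidermis differentiate, among them the multiciliated, goblet and basal cells. In bulk RNA, a lower level of a transcript can come from fewer cells that hold it or from less of it per cell, and these cannot be told apart here. Whether the 3 stages came from the same clutches or were prepared together is not given in the sources used here, so stage and preparation cannot be told apart either.

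The libraries held between 10692685 and 40286023 reads assigned to genes. In 2 of the NF24 dMO libraries, replicates 1 and 3, 51.2% and 40.5% of all tallied reads were unmapped, and 52.5% and 54.2% of the mapped reads lay outside genes on this strand, against at most 34.0% and 47.7% in any CoMo library. Their part in the tailbud values was not tested beyond the fits without them given below. Of the 200 members, 197 had reads in all 16 libraries and the others in at least 14, and 183 averaged at least 5 CPM over all libraries. In the CoMo NF16 libraries, where levels were lowest by construction, 17 members had fewer than 10 reads in at least 1 library.

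In CoMo, the median member averaged 36.5 CPM at NF10, 7.40 CPM at NF16 and 26.0 CPM at NF24. These levels chose the members and are described without a test. The median log2 change was -1.80 from NF10 to NF16, with a range of -4.45 to -1.24, and 1.53 from NF16 to NF24, with a range of 1.23 to 3.59. The smaller change was the later one in 136 members and the earlier one in 64. At NF24, CoMo levels were within 1 log2 unit of the NF10 level in 156 members, lower by more than 1 in 37 and higher by more than 1 in 7. Among the 3240 genes that were lower by at least 1 at NF16 than at NF10, the 373 that were higher again by at least 1 at NF24 made up 11.5%. The reverse course, a transient peak at NF16 by the same thresholds, was met by 520 genes.

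Membership depended on the limit of 200 and on single control libraries. The last gene inside the list had a score of 1.227 and the first outside it 1.223, so no gap separated the list from the genes below it. With each CoMo library left out in turn, between 181 and 198 members still met both thresholds, the fewest without NF10 replicate 2. In all 8 of these settings 148 members passed, and 52 failed at least once. Every CoMo NF16 library lay below every CoMo NF10 and NF24 library in 169 members, a pattern that 10.1% of all genes tested had in CoMo; the rule itself selects for it.

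The thresholds and the score used no dMO level. The dMO libraries did enter the filter on reads and the TMM scaling, and they share deviations with the CoMo libraries of the same replicate number at NF10 and NF24, so the dMO values are not fully separate from the choice of members. In dMO the same course was seen for a part of the members. The median member averaged 38.2 CPM at NF10, 10.4 CPM at NF16 and 24.9 CPM at NF24 in dMO. Summed over the 200 members, levels were 10512, 12922 and 13152 CPM in the NF10 libraries, 4781 and 4306 CPM in the NF16 libraries, and 10179, 8122 and 9157 CPM in the NF24 libraries. Both neurula dMO libraries were thus below all 6 of the other dMO libraries. In CoMo the same sums were 9396, 13113 and 13070 CPM at NF10, 2448 and 2567 CPM at NF16, and 8760, 9276 and 7900 CPM at NF24. The median over all genes tested stayed between 4.49 and 4.69 on the log2(CPM + 1) scale in the 16 libraries, while that of the members was 3.55 and 3.50 in the dMO NF16 libraries and 3.02 and 3.07 in the CoMo NF16 libraries.

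**Figure D1:**
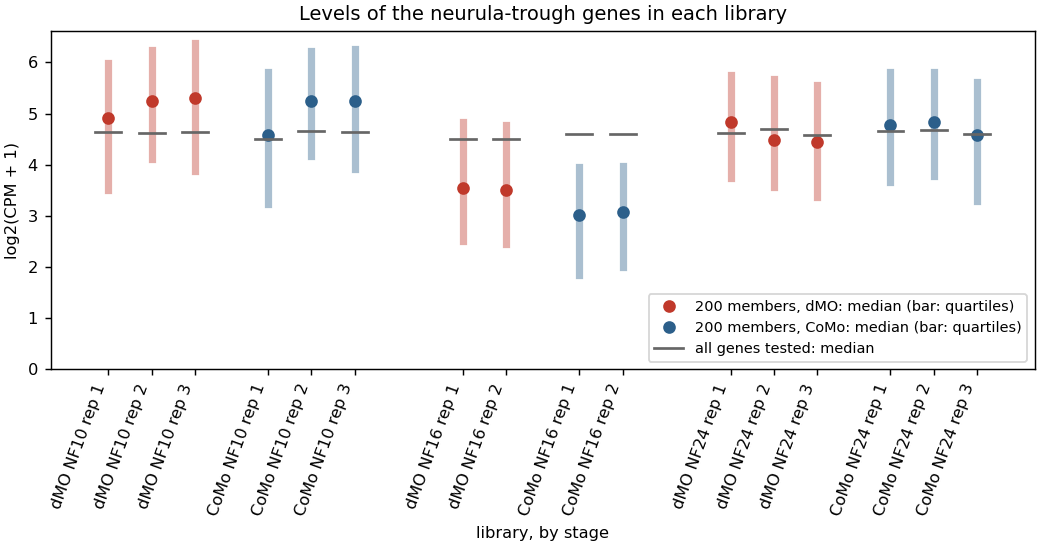
Levels of the 200 members in each library on the log2(CPM + 1) scale, with dMO libraries in red and CoMo libraries in blue at each stage. Points are medians over members, bars run between the quartiles and grey dashes are medians over all genes tested. At NF16 the member medians are 3.55 and 3.50 in dMO and 3.02 and 3.07 in CoMo, and the highest of these lies below every member median at NF10 and NF24.

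From gastrula to neurula, 94 of the 200 members (47%) fell in dMO, and 0 rose. The comparison used edgeR's quasi-likelihood test with Benjamini-Hochberg adjustment over all 11997 genes, at an adjusted p under 0.05. Among all genes tested, 17.1% fell and 17.2% rose. The median log2 change, dMO NF16 over dMO NF10, was -1.49 in the members and -0.02 in all genes tested. Both dMO NF16 libraries lay below all 3 dMO NF10 libraries in 148 members (74%), against 31.5% of all genes. The count of members that fell was 31 without dMO NF16 replicate 1 and 33 without replicate 2, beside 3.33% and 5.28% of all genes, where the lone NF16 library is taken to vary like the NF10 libraries. With libraries scaled by total counts alone, 136 members fell and 0 rose, beside 27.1% and 12.6% of all genes. The mean NF10 level was at least 1 log2 unit above each single NF16 library in 138 and 141 members, against 24% and 21.8% of all genes.

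From neurula to tailbud, 68 members (34%) rose in dMO and 0 fell, by the same test. The background was 14.9% of all genes for a rise and 13.6% for a fall. With libraries scaled by total counts alone, 81 members rose and 0 fell, beside 18.5% and 9.87% of all genes. With the replicate number as a block, 111 members rose and 2 fell, beside 22.8% and 21.2% of all genes. In that fit NF24 replicate 3 has no NF16 library of its number, so the change rested on replicates 1 and 2 only. The median log2 change, dMO NF24 over dMO NF16, was 1.07 in the members and 0.07 in all genes. All 3 dMO NF24 libraries lay above both dMO NF16 libraries in 104 members (52%), against 30.9% of all genes. The count rested on single libraries, as did that of all genes. It was 30 without dMO NF16 replicate 1 (7.64% of all genes), 1 without dMO NF16 replicate 2 (1.53%), 28 without NF24 replicate 1 (8.19%) and 40 with NF24 replicates 1 and 3 both left out (12.1%). Set against the NF16 mean, the level was higher by at least 1 log2 unit in 116, 89 and 74 members in NF24 replicates 1, 2 and 3, against 22.1%, 21.4% and 19.1% of all genes. Replicate 2, the NF24 library with the lower unmapped and outside-gene shares, lay between the other two.

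In dMO, reads on the strand opposite to the members' genes were highest in 2 of the NF24 libraries. Over the 200 members they summed to 140, 135 and 119 CPM at NF10, 127 and 100 CPM at NF16, and 265, 141 and 315 CPM at NF24. These NF10 and NF16 sums overlapped, and the highest were those of the 2 libraries with high outside-gene shares. The CoMo sums were 159, 148 and 127 CPM at NF10, 71.8 and 86.4 CPM at NF16, and 122, 162 and 152 CPM at NF24. Over all genes, the opposite strand in dMO held 1.58%, 1.38% and 1.32% of reads at NF10 and 1.55% and 1.45% at NF16. At NF24 it held 4.58%, 1.76% and 3.13% in dMO and 1.76%, 2.39% and 4.05% in CoMo. Over the 8 dMO libraries, the opposite strand held a median of 0.579% of a member's reads, against 0.673% for all genes tested. It held over 10% in 11 members (5.5%) and in 12% of all genes. The part of these reads in the tailbud levels was not tested.

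Both changes together, a fall by NF16 and a rise by NF24, were called in 38 members (19%), against 1.83% of all genes tested. A further 56 members (28%, against 15.3% of all genes) only fell. Another 30 (15%, against 13.1%) only rose, a share close to that of all genes. The remaining 76 (38%, against 69.8%) were called in neither interval. Every dMO NF16 library lay below every dMO NF10 and NF24 library in 84 members (42%), against 9.03% of all genes. The 38 became 7 without dMO NF16 replicate 1 (0.167% of all genes), 1 without dMO NF16 replicate 2 (0.0417%) and 17 without dMO NF24 replicate 1 (0.842%). By means alone, the NF16 dMO level was below both the NF10 and the NF24 level in 164 members (82%), which 26.2% of all genes met.

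Beside other genes with an early fall in CoMo, the members had a similar share of falls in dMO by neurula and a larger share of rises by tailbud. The 2867 genes that were lower by at least 1 at NF16 in CoMo but not higher again by at least 1 at NF24 served as the comparison. Of these 53.3% fell in dMO between NF10 and NF16, close to the 47% of members, and 2.2% rose between NF16 and NF24, against 34% of members. Their median log2 changes were -1.40 and -0.62, against -1.49 and 1.07 for the members. The 173 genes that met both thresholds but ranked below the 200 had 97 falls (56.1%) and 43 rises (24.9%). Within the list, successive groups of 50 members from the highest score down had 26, 22, 22 and 24 falls. The same groups had 19, 18, 16 and 15 rises, and 12, 6, 11 and 9 members with both. The members and the 2867 genes were separated by their CoMo change from NF16 to NF24. Over all genes tested, that change had a Pearson r of 0.66 with the dMO change. A larger share of rises in the members was thus partly built in. These counts are set side by side and the differences between the sets were not tested.

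**Figure D2:**
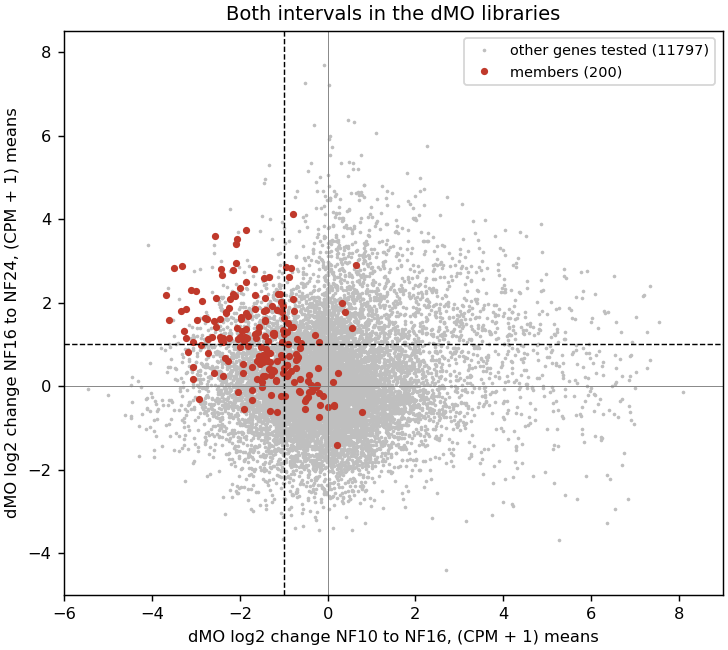
Change of each gene in the dMO libraries from NF10 to NF16 (horizontal axis) and from NF16 to NF24 (vertical axis), as log2 ratios of group means of CPM + 1. Members are red, the other genes tested are grey and the dashed lines mark the thresholds of 1. Of the 200 members, 83 lie in the upper left corner beyond both lines, 54 beyond the vertical line only, 21 beyond the horizontal line only and 42 beyond neither.

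Applied to the dMO means, the trough rule was met by 470 genes (3.92% of those tested), of which 134 were also among the 373 that met it in CoMo. The shared genes were 35.9% of the CoMo genes and 28.5% of the dMO genes. The 200 highest-scoring genes of each condition had 47 in common, which is 23.5% of either list. Across the 200 members, which share their libraries and are not independent, the dMO and CoMo changes from NF10 to NF16 had a Pearson r of 0.58 and those from NF16 to NF24 one of 0.45. Over all genes tested r was 0.86 and 0.66. The rule limited the members to CoMo changes beyond its thresholds, which by itself lowers r, so the difference is not read. The fall was smaller in dMO than in CoMo in 156 members and the rise was smaller in 149, but the CoMo changes had been chosen to be large.

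Grouped by the rule's thresholds on the dMO means, 83 members (41.5%) met both in dMO, against 3.92% of all genes, and 42 (21%) met neither, against 60.3%. In the 83, the median NF16 level was 5.36 CPM in dMO and 6.08 CPM in CoMo. In the 54 members that met the fall threshold only (27%, against 18% of all genes), the median NF16 level was 14.2 CPM in dMO and 7.78 CPM in CoMo. Their median NF24 level was 19.9 CPM in dMO and 25.4 CPM in CoMo. In the 21 that met the rise threshold only (10.5%, against 17.8%), the medians were 17.1 CPM in dMO and 8.03 CPM in CoMo at NF16, and 53.5 CPM in dMO and 33.7 CPM in CoMo at NF24. The 42 members with neither had lower medians at NF16 and NF24 than at NF10 in dMO, with 34.4 CPM at NF10, 24.7 CPM at NF16 and 26.0 CPM at NF24. In CoMo the same 42 had 32.0, 8.52 and 28.6 CPM. These groups were formed from the levels shown, so their differences are a description.

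**Figure D3:**
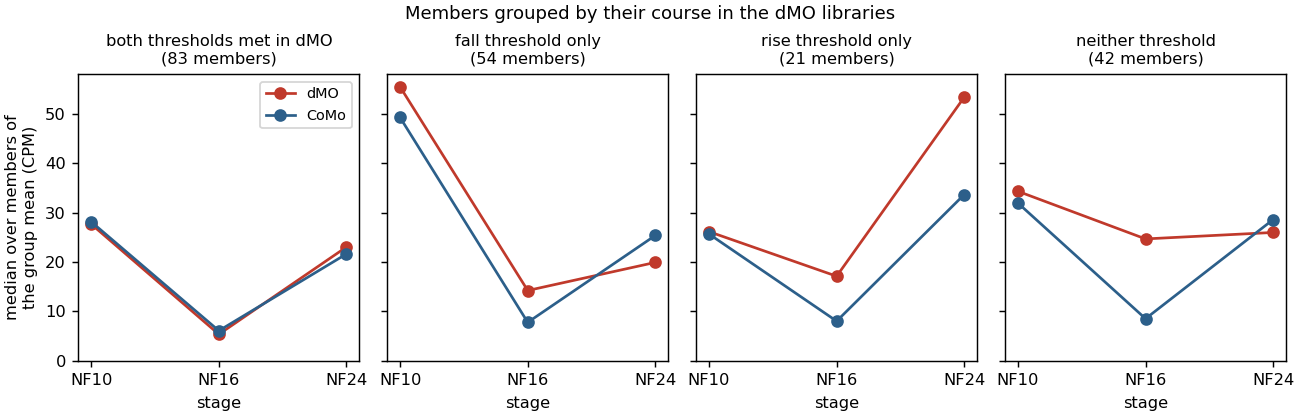
Median over members of the group mean in CPM at NF10, NF16 and NF24, with dMO in red and CoMo in blue, for members grouped by the thresholds their dMO means met. The 2 lines nearly coincide for the 83 members that met both, and for the 42 that met neither the NF16 medians are 24.7 CPM in dMO and 8.52 CPM in CoMo.

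Between conditions, calls among the members were made at the neurula stage. At NF16, 39 members (19.5%) were higher in dMO than in CoMo and 1 was lower, by edgeR's quasi-likelihood test with Benjamini-Hochberg adjustment, where 7.97% of all genes were higher and 12.9% lower. The median log2 difference was 0.79 in the members and 0.03 in all genes. Both dMO libraries lay above both CoMo libraries in 119 members (59.5%, against 31.5%) and below them in 18 (9%, against 33.3%). The CoMo NF16 libraries belong to the rule, which chose members for low values in them, so a higher dMO level was partly built in and nothing is read from these counts. Of the 39 members, 23 were among the 42 that met neither threshold in dMO and 1 was among the 83 that met both. Those groups were formed from the same dMO NF16 levels, so this split was partly built in as well. Without CoMo NF16 replicate 1, 13 members were higher and 0 lower, beside 1.35% and 6.44% of all genes, and without CoMo NF16 replicate 2, 18 were higher and 2 lower, beside 3.73% and 9.26%. With scaling by total counts alone, 51 members were higher and 1 lower, beside 11.7% and 11.5% of all genes.

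At NF10, 0 members and 0 of all genes tested (0%) passed the test in either direction with edgeR, and at an unadjusted p under 0.05, 44 genes were higher (0.367%) and 13 lower (0.108%), none of them members. All 3 dMO libraries lay above the CoMo libraries in 3 members and below them in 3, each 1.5% against 1.88% and 1.82% of all genes. With the replicate number as a block, again 0 genes passed, and at an unadjusted p under 0.05, 23 members were higher and 1 lower, beside 6.37% and 3.16% of all genes. With DESeq2 1 gene passed, which was not a member. The median log2 difference of the members, dMO over CoMo, was 0.05. At NF24, again 0 members and 0 genes (0%) passed with edgeR. At an unadjusted p under 0.05, 13 members (6.5%) were higher in dMO and 8 (4%) lower, against 6.75% and 3.48% of all genes, and DESeq2 called 3 members and 269 genes at an adjusted p under 0.05. The dMO libraries lay above the CoMo libraries in 9 members (4.5%, against 8.64%) and below them in 16 (8%, against 7.26%). With the replicate number as a block, 0 members and 4 genes passed, and at an unadjusted p under 0.05, 21 members were higher and 35 lower, beside 10.1% and 8.36% of all genes. The median difference was -0.18. The NF10 and NF24 CoMo libraries belong to the rule as well, having been chosen for high values.

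Compared with gastrula, tailbud levels in dMO were higher in a smaller share of members than of all genes, and lower in a similar share. From NF10 to NF24, 51 members (25.5%) were lower and 8 (4%) higher at an adjusted p under 0.05 by edgeR's quasi-likelihood test. Of all genes, 29% were lower and 28.7% higher, so the share that was lower was close to the background and the share that was higher was below it. The median log2 change was -0.59 in the members and -0.02 in all genes. By means, 129 members were within 1 log2 unit of their NF10 level at NF24 in dMO, 52 were lower by more than 1 and 19 higher by more than 1. In CoMo, whose NF10 and NF24 levels entered the rule, the same counts were 156, 37 and 7. No share of all genes is given for these counts, so nothing about the members is read from them. Without NF24 replicates 1 and 3, 13 members were lower and 2 higher, beside 12.7% and 17.7% of all genes.

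The 4 genes named here were chosen, among members that averaged 5 CPM or more and whose libraries did not overlap between the compared stages in dMO, as those with the largest significant fall by NF16 and those with the largest significant rise by NF24. They are given by their identifiers, since no symbol could be assigned and their functions are thus not stated. Xetrov90003228m.g had 98.1, 127 and 117 CPM in the dMO NF10 libraries, 9.49 and 6.35 CPM in the NF16 libraries, and 48.0, 43.0 and 26.7 CPM in the NF24 libraries. In CoMo it had 65.5, 144 and 154 CPM, 8.29 and 7.62 CPM, and 27.2, 29.6 and 42.7 CPM at the same stages. Its 3 stages did not overlap in either condition, and at each stage dMO and CoMo did. In dMO, Xetrov90003228m.g fell by 3.83 on the log2 scale by NF16 (SE 0.39, adjusted p = 0.00105, edgeR) and then rose by 2.28 (SE 0.42, adjusted p = 0.00947). Its NF24 level remained below the NF10 level in dMO, with a log2 change of -1.59 (adjusted p = 0.00283, edgeR). Without dMO NF16 replicate 2 the adjusted p of the rise was 0.0735.

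Xetrov90018729m.g had 26.8, 97.2 and 45.0 CPM in the dMO NF10 libraries, 4.80 and 2.57 CPM in the NF16 libraries, and 11.0, 23.4 and 5.02 CPM in the NF24 libraries. Its CoMo values were 12.8, 62.0 and 48.6 CPM, 3.05 and 2.77 CPM, and 9.79, 12.3 and 3.79 CPM. Replicate 1 was the lowest library at NF10 in both conditions, and replicate 3 was the lowest at NF24. In dMO, Xetrov90018729m.g fell by 3.92 on the log2 scale by NF16 (SE 0.69, adjusted p = 0.005, edgeR). Its change by NF24 was 1.80 with an adjusted p of 0.0877, and without dMO NF16 replicate 2 the adjusted p of the fall was 0.0555.

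Xetrov90007209m.g had 5.64, 9.61 and 12.6 CPM in the dMO NF10 libraries, 1.17 and 0.321 CPM in the NF16 libraries (22 and 4 reads), and 38.5, 15.1 and 6.94 CPM in the NF24 libraries. Its CoMo values were 3.28, 9.31 and 17.1 CPM, 3.58 and 1.72 CPM, and 39.7, 37.5 and 24.7 CPM. In CoMo the NF10 and NF16 libraries overlapped, and in dMO they did not. In dMO, Xetrov90007209m.g fell by 3.58 on the log2 scale by NF16 (adjusted p = 0.0114, edgeR) and rose by 4.66 by NF24 (SE 0.94, adjusted p = 0.0121). Without dMO NF16 replicate 2 these adjusted p were 0.076 and 0.0761.

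Xetrov90008617m.g had 2.02, 16.1 and 5.17 CPM in the dMO NF10 libraries, 1.87 and 0.321 CPM in the NF16 libraries (35 and 4 reads), and 12.8, 15.5 and 40.8 CPM in the NF24 libraries. Its CoMo values were 1.14, 17.2 and 5.23 CPM, 2.53 and 1.58 CPM, and 6.04, 19.1 and 18.0 CPM. At NF10 the replicates had the same order in dMO and CoMo, with replicate 2 the highest and replicate 1 the lowest. In dMO, Xetrov90008617m.g rose by 4.30 on the log2 scale by NF24 (SE 0.87, adjusted p = 0.0121, edgeR), while the change by NF16 was -2.78 with an adjusted p of 0.0872. The adjusted p of the rise was 0.0629 without dMO NF16 replicate 2, and 13.2% of its reads in dMO were on the opposite strand.

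**Figure D4:**
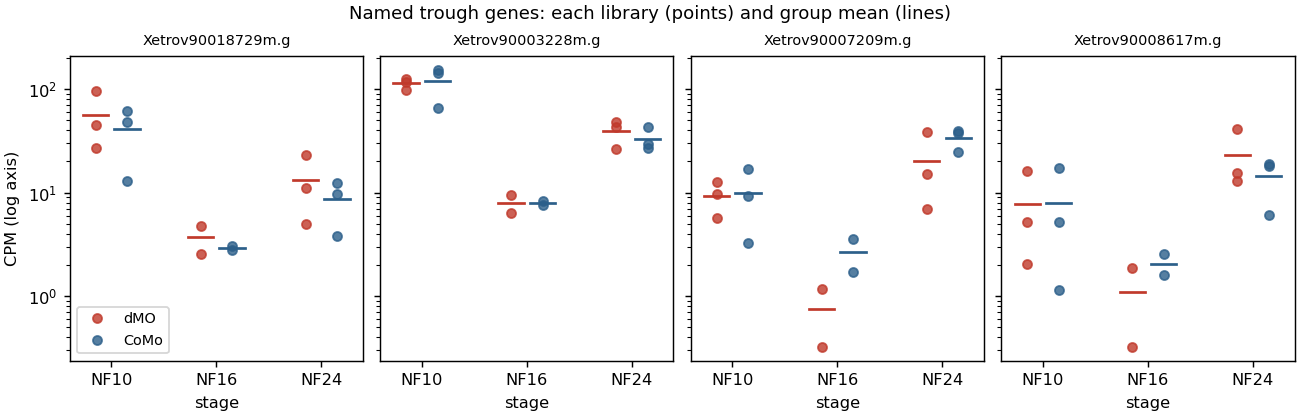
CPM of the 4 named genes in each library on a log axis, by stage, with dMO in red, CoMo in blue and lines at group means. In dMO all NF16 points lie below all NF10 and NF24 points for each gene, with the lowest at 0.321 CPM in NF16 replicate 2 for Xetrov90007209m.g and Xetrov90008617m.g.

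The members varied more between replicates than all genes tested did at NF10 and NF24, where the rule chose high CoMo means. A mean can be high through 1 library, so a wider range in CoMo was partly built in. The dMO libraries share deviations with the CoMo libraries of the same replicate number at these stages. Their range is thus not separate from the rule. The median range between libraries of a group was 0.94 log2 units in dMO and 0.96 in CoMo at NF10, against 0.67 and 0.68 over all genes tested. At NF24 it was 1.00 in dMO and 0.76 in CoMo, against 0.71 and 0.50. At NF16, with 2 libraries a group, it was 0.39 in dMO and 0.30 in CoMo, near the 0.37 and 0.28 of all genes. The order of the comparison at NF10 was the same among the genes with at least 5 CPM, where the medians were 0.82 in dMO and 0.89 in CoMo for 183 members, against 0.71 and 0.72 for 9564 genes.

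Libraries with the same replicate number deviated together in the 2 conditions. At NF10, the deviations of the members from their group means correlated between dMO and CoMo with r = 0.91, 0.94 and 0.79 for replicates 1, 2 and 3, across genes, against 0.80, 0.82 and 0.70 over all genes tested. The same replicate number was the highest in both conditions in 149 members (74.5%), against 65.4% of all genes. Replicate 1 was the lowest NF10 library in 102 members in dMO and in 124 in CoMo, against 33.5% and 41.2% of all genes, and in 93 members it was the lowest in both. At NF24 the correlations of the members were 0.61, 0.38 and 0.75, and replicate 3 was the lowest in 115 members in dMO and in 115 in CoMo, in both for 94 of them. The corresponding shares over all genes were 36.2% and 38.1%. What the replicate numbers stand for is not given in the sources used here, and the CoMo libraries of both stages belong to the rule.

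**Figure D5:**
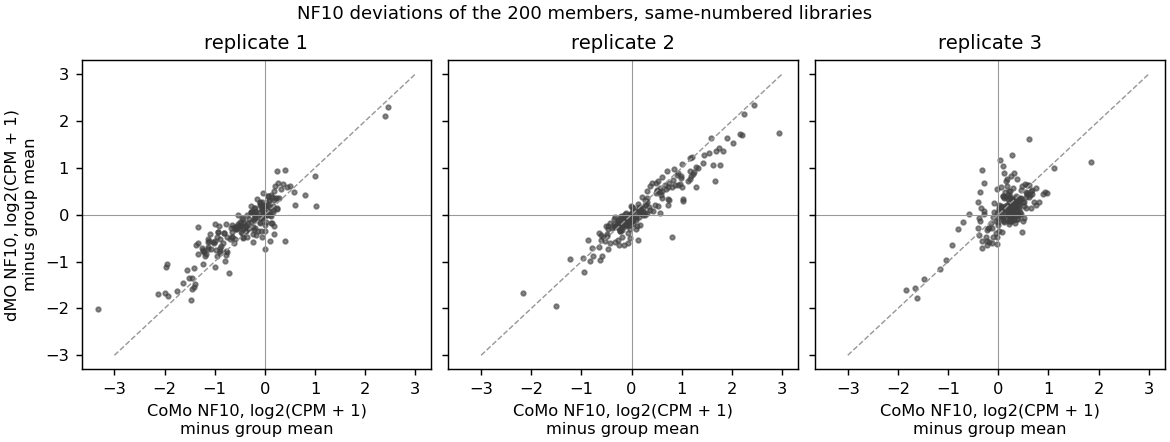
Deviation of each of the 200 members from its group mean at NF10, in log2(CPM + 1), in the CoMo library (horizontal axis) and the dMO library (vertical axis) of the same replicate number. Points lie along the dashed diagonal in all 3 panels. The correlations of 0.91, 0.94 and 0.79 were computed on log2 CPM with a prior count of 2, not on the plotted scale. Replicate 1 has the lowest value of the 3 in both conditions in 93 members.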

How the data were processed

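The deposited values were raw read counts per gene from 16 strand-directional libraries, depleted of ribosomal RNA and sequenced as paired ends. The authors aligned reads to the Xenbase v9.1 genome with STAR, which also counted reads per gene. The submitters' processing notes give STAR version 2.4.2a, and the study's methods name a different version. Reads with several genomic positions were tallied as 0 in every library, so near-identical copies may be undercounted. The strand column with the larger total was used. None of the 14373 identifiers matched the reference table (0 matches, UCB_Xtro_10.0), so no symbols, marker lists, coordinates or sequences were used.

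Libraries were grouped by their labels, which call them biological replicates. Genes with at least 1 read in 12 libraries were kept, as in the study's own filter, and CPM were scaled by TMM over these genes. Each comparison was fitted on its own libraries with edgeR 4.0.16 (R 4.3.3, quasi-likelihood test, default prior count). A prior count of 2 entered only the log2 CPM on which the deviations of same-numbered libraries were correlated. The SE is the log2 change over the square root of F. Alternatives were DESeq2 1.42.0, other scalings, filters, pseudocounts and strand columns, one fit of all groups, a replicate block and each library left out. Figures were drawn with matplotlib in Python. In simulated counts for these comparisons, the test recovered 48.5% (dMO NF10 to NF16) and 63% (dMO NF16 to NF24) of 200 genes changed by 2 on the log2 scale, among 11997 genes. The changed genes averaged at least 5 CPM in the compared libraries. The median changes of the members in dMO were smaller, at -1.49 and 1.07, so these rates do not apply to the members as a set. Among the unchanged genes of the simulation, 7 and 12 were called. The real comparisons called 4118 and 3422 genes, so the simulated setting of 200 changed genes differed from the data. The members, lists and tests were chosen with earlier results of these data known. The tests carry no replicate block. Same-numbered libraries count as pairs within NF10 and within NF24, where blocked values are given beside the results. All 3 correlations of their deviations were over 0.1 there (0.80, 0.82 and 0.70 at NF10 and 0.39, 0.22 and 0.52 at NF24). They were not counted as pairs at NF16 or between stages. From dMO NF16 to NF24, however, the correlations of replicates 1 and 2 were also over 0.1 (0.15 and 0.20). Blocked counts are therefore given beside that result too.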

Additional observations from a re-analysis of the deposited data

How the results depend on the processing

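With 2 NF16 libraries a condition, each comparison with NF16 rested on single libraries. Without dMO NF10 replicate 1, 113 members fell from NF10 to NF16, beside 18.1% of all genes. Without dMO NF24 replicate 3, 77 members rose from NF16 to NF24, beside 15.6%, and 53 both fell and rose, beside 2.14%. These are the highest dMO counts in the ranges that follow. The shares of all genes beside the lowest are given in the Results. With each library left out in turn, 31 to 113 members fell in dMO from NF10 to NF16 (1224 to 4182 of all genes called in either direction), 1 to 77 rose from NF16 to NF24 (323 to 3551) and 1 to 53 did both; between conditions, member calls numbered 13 to 51 at NF16 (935 to 3041) and 0 at NF24 (0 to 4 of all genes). These fits were chosen after seeing the data: without NF24 dMO replicates 1 and 3, 40 members rose from NF16 to NF24, and 13 members were lower at NF24 than at NF10, where 3643 genes were called in either direction; pairing the NF16 libraries of unlike number, whose same-numbered deviations had r = -0.142, gave 66 members.

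With the replicate number as a block, 111 members rose from dMO NF16 to NF24 and 5285 genes were called in either direction, against 68 and 3422 without it, 62 members in both intervals (2.87% of all genes), and 4 genes between conditions at NF24; it moved no other count at an adjusted p by over 1.5 times. At an unadjusted p it called 1143 genes at NF10 and 2217 at NF24. Between NF16 and another stage, the block leaves replicate 3 without an NF16 library of its number. Of the 66 members called above with NF16 libraries of unlike number paired, 62 were higher in dMO than in CoMo and 4 lower. Of all genes, 13.5% were higher and 17.4% lower in that fit, at an adjusted p under 0.05. DESeq2 gave 65 members in both intervals (3.36%), 1 gene between conditions at NF10, and 3 members and 269 genes at NF24. One fit of all groups gave 1 gene at NF10 and 11 at NF24. Scaled by total counts only, the median of all genes moved to -0.50 from NF10 to NF16 and to 0.29 from NF16 to NF24 in dMO; the members stood at -1.98 and 1.29 and 59 passed in both intervals (3.54%). The rule was then met by 831 genes in CoMo and 799 in dMO, and with a pseudocount of 5 by 158, 126 of them members, and 234. The opposite-strand share of members was 0.442% in CoMo libraries. The median difference of the members at NF10, near 0, ranged from -0.07 to 0.18 with single libraries left out; the other medians and the changes of the named genes kept their sign in every setting run. Low read numbers limited some members at NF16, where 17 had fewer than 10 reads in a CoMo library.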
